A study of Mus musculus with 8 samples.

Results

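Genomic regions were described that left the nuclear lamina when mouse 3T3-L1 preadipocytes became adipocytes and that were still mostly away from it when Tmem120a, or Tmem120a and Tmem120b together, had been knocked down. The deposited list of released regions holds 2021 stretches of DNA that lay in lamina associated domains (LADs) of preadipocytes and not of control adipocytes. Of these, 843 were selected on 2 measured values, a share of under 50% of their length in LADs of the Tmem120a knockdown and of under 50% in LADs of the double knockdown. They are called stably released regions here, and they make up 41.7% of the released list (95% Wilson interval 39.6 to 43.9%). The name stands for this rule only, since stability was not measured. The other 1178 released regions were covered for at least 50% of their length by LADs of both knockdowns (487 regions), of the double knockdown only (457) or of the Tmem120a knockdown only (234). In all, 721 released regions (35.7%) were at least 50% in LADs of the Tmem120a knockdown and 944 (46.7%) in LADs of the double knockdown. With the regions recruited to the lamina, the 2 deposited lists of differential regions hold 3829 regions in all.

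LADs are long stretches of chromosome that lie against the nuclear lamina, the meshwork of lamin proteins under the inner nuclear membrane, and they mostly hold silent, gene-poor chromatin. DamID finds them by fusing LaminB1 to the bacterial methylase Dam, which marks the sequence GATC in nearby DNA, while free Dam controls for how accessible the DNA is. During fat cell differentiation some loci leave the lamina and others move to it, and TMEM120A and its paralog TMEM120B are transmembrane proteins of the nuclear envelope that are enriched in fat. The comparison asks which released loci kept their adipocyte state when these proteins were depleted.

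The 3T3-L1 cells, an established mouse fibroblast line that forms adipocytes in culture, were measured in 4 conditions. Preadipocytes were collected at day 0, before differentiation. Adipocytes were collected at day 9 and carried either a control shRNA (non-target per the labels, while the study's text also names an empty shRNA vector as control), an shRNA against Tmem120a, or shRNAs against Tmem120a and Tmem120b, in stable lines. All cells received lentivirus for Dam or LaminB1-Dam, and each condition has 1 library of each kind. With 1 LAD list per condition there is no replicate error to set a difference between conditions against, and none was tested. Shares carry 95% Wilson intervals that take each region as 1 count. Neighbouring regions are not independent, so the intervals cover counting error only. No RNA was used here, so neither the adipocyte state nor the depletion of Tmem120a could be checked against marker genes, and the lists hold positions only, so depth is unknown.

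The loci that follow show the different ways in which a region was released. The longest gene lying wholly inside a stably released region was Cd36, the fatty acid transporter of adipocytes, in a region at chr5:17283610-17512335 (mm9). Its 2 borders fall at GATC sites, which are where DamID can place a border. These are shown on the + strand with the GATC at the border in capitals. The lower border sequence also holds a GATC away from the border, left in lower case.

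Cd36 region, lower border: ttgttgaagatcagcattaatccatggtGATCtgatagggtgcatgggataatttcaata
Cd36 region, upper border: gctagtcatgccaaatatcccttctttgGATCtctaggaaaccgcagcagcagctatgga

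The Cd36 region held 2 matches of a direct repeat of AGGTCA with 1 base of any kind between its copies, which PPARγ with its partner RXR can bind, out of 97 matches in all stably released regions. The matches, in capitals, lie outside the Cd36 gene body, 9.18 kb and 107 kb upstream of its annotated start. Match 1 lay in a LAD of the double knockdown and match 2 in none of the 3 adipocyte lists. The first is at chr5:17403946-17403982 on the + strand and the second at chr5:17501550-17501586 on the - strand. Over all stably released regions such matches numbered 2.25 per Mb. They numbered 2.37 per Mb in regions covered in both knockdowns, 2.39 in the double knockdown only and 1.72 in the Tmem120a knockdown only.

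Cd36 region, match 1: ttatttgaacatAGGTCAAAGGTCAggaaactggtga
Cd36 region, match 2: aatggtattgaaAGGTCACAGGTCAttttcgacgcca

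Pck1 encodes phosphoenolpyruvate carboxykinase, which makes the glycerol backbone of stored fat from small precursors. The 250 bases before its start and the 30 after it, at chr2:172978299-172978578 on the + strand, lay inside a stably released region and held 1 GATC, shown in capitals. A GATC was present in the same window of 44.0% of 22350 protein-coding gene starts.

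Pck1 start: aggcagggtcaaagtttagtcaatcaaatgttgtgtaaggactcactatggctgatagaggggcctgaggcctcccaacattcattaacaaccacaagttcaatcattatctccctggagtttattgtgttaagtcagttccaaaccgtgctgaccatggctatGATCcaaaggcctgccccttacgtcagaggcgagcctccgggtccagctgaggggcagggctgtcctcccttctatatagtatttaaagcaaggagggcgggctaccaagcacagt

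Another locus carried the miR-17-92 cluster, 6 microRNA genes within 836 bp that are processed from 1 transcript and are known for promoting cell proliferation. Its region lies at chr14:115422386-115463744. The mature sequences are from RefSeq, and the seed, bases 2 to 8, is in capitals. miR-17-5p and miR-20a-5p share the seed AAAGUGC, and miR-19a-3p and miR-19b-3p share the seed GUGCAAA.

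mmu-miR-17-5p: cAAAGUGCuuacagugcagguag
mmu-miR-20a-5p: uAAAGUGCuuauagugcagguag
mmu-miR-18a-5p: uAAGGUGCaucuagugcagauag
mmu-miR-19a-3p: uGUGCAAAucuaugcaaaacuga
mmu-miR-19b-3p: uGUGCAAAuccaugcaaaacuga
mmu-miR-92a-3p: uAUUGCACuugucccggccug

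At Cd36, the whole 107 kb gene body lay in a LAD of preadipocytes and none of it in a LAD of control adipocytes, the Tmem120a knockdown or the double knockdown. The region around it was 229 kb long and was in itself a complete preadipocyte LAD. It had 519 GATC sites, and 0% of it lay in LADs of the Tmem120a knockdown against 19.1% in the double knockdown. That partial LAD of the double knockdown lay upstream of Cd36, between the gene and the far border. Gnat3, a taste transducin gene, started in the same region with 76.7% of its body inside, and again none of it lay in a LAD of any of the 3 adipocyte lists. The next LAD above the region was close in all lists, at 22.7 kb in preadipocytes and 56.2 kb in control adipocytes. In the single knockdown it was at 57.3 kb and in the double knockdown at 70.2 kb.

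At Pck1, all 6.23 kb of the gene lay in a preadipocyte LAD and none in the other 3 lists. Its region, chr2:172939978-173032641, was 92.7 kb long and had no base in a LAD of either knockdown. The region also met Ctcfl, a germ-cell paralog of CTCF, with 19.5% of its body, and Zbp1, a sensor of nucleic acids, with 4.30%. The nearest control adipocyte LAD was 197 kb away, and the nearest LADs of the Tmem120a and double knockdowns were 109 kb and 163 kb away.

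At Gdf6, a growth factor of the BMP family, the whole gene was in a LAD in preadipocytes alone. Its region, chr4:9754026-9791920, was the 37.9 kb end of a 304 kb preadipocyte LAD whose remainder was also a LAD of control adipocytes. A LAD of the Tmem120a knockdown began 6.40 kb beyond the region, and a LAD of the double knockdown reached over 4.65% of the region without reaching the gene. Gdf6 thus lay beside a LAD border in all 3 adipocyte lists, whereas Cd36 and Pck1 lay in preadipocyte LADs that were missing as a whole from control adipocytes.

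The miR-17-92 region was arranged differently, as a 41.4 kb gap inside a LAD. In preadipocytes it was part of a single 10495 kb LAD. In control adipocytes LADs met it on both sides. In the Tmem120a knockdown the gap was wider, with LADs ending 32.9 kb below and 55.4 kb above the region, and in the double knockdown 18.2% of the region was covered by the LAD above it. The microRNA cluster itself was outside the LADs of all 3 adipocyte lists.

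**Figure D1:**
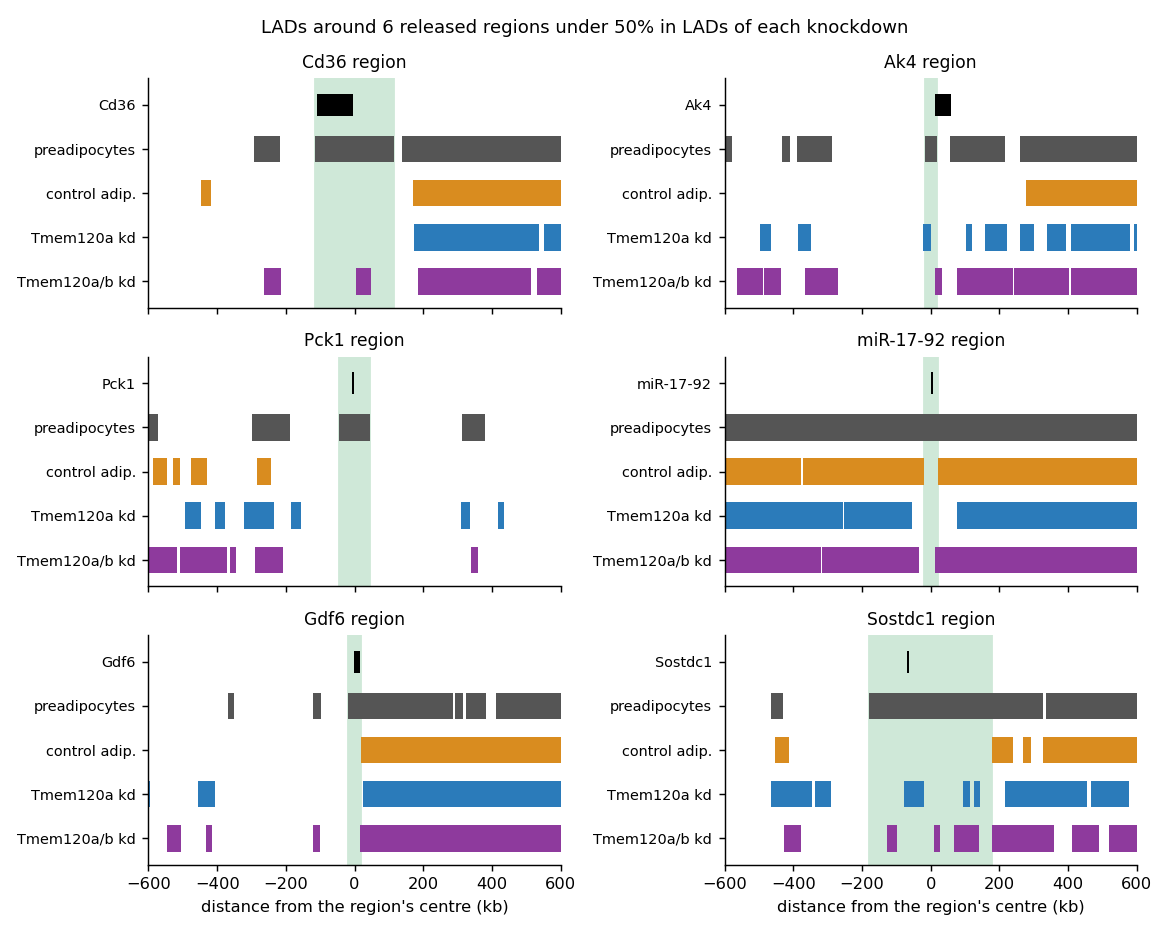
LADs (bars) in preadipocytes, control adipocytes, the Tmem120a knockdown (kd) and the Tmem120a/b double knockdown within 600 kb of the centre of 6 stably released regions, with the x axis in kb from the centre, the region shaded and the named gene in black. The Cd36 and Pck1 regions were whole preadipocyte LADs, the Gdf6 and Sostdc1 regions were ends of longer ones, and the miR-17-92 region was a gap between LADs in the 3 adipocyte lists.

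The overlaps that chose the regions are given here as a description. No base lay in a LAD of either knockdown for 492 of the 843 stably released regions, or 58.4% (55.0 to 61.6%). Of the rest, 91 had some overlap with LADs of the Tmem120a knockdown only, 153 with those of the double knockdown only and 107 with both. Summed over all stably released regions, 3.64 Mb (8.45% of their length) lay in LADs of the Tmem120a knockdown and 5.24 Mb (12.1%) in LADs of the double knockdown. Where the Tmem120a knockdown covered part of a region, the LAD came in across a border in 148 of 198 regions and lay within the region in the others. In the double knockdown it came in across a border in 218 of 260.

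The 50% limit runs through a continuous range of values. Taking the larger of the 2 knockdown overlaps, 523 stably released regions had under 10%, 56 had 10 to 20%, 59 had 20 to 30%, 98 had 30 to 40% and 107 had 40 to 50%, and 125 other released regions had 50 to 60%. The regions closest inside the limit had overlaps of 49.98% and 0% (chr4:3938510-3965993), 49.96% and 42.99% (chr11:12320482-12378556) and 0% and 49.89% (chr5:53395958-53412324) in the single and double knockdown. Those closest outside had 0% and 50.08% (chr1:55443539-55544480), 50.11% and 22.83% (chr19:22094711-22127861) and 50.39% and 50.36% (chr7:121796276-121818520). The regions thus spread over the whole range below the limit, and the region at Ak4 was close to it.

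Ak4, an adenylate kinase of mitochondria, was 1 of 17 genes discussed by the study, its knockdown targets Tmem120a and Tmem120b included. It was the only one of them that met a stably released region (5.88% of the list, beside 2.53% of all protein-coding genes). Many of the 17 were picked by the study from the same DamID data, so all genes are not a like background for them. The study lists Ak4 among genes that failed to be released with Tmem120a knocked down. The Ak4 region, chr4:101063803-101097340, was 33.5 kb long with 48.2% in LADs of the Tmem120a knockdown and 10.3% in LADs of the double knockdown. Of the Ak4 gene body, 17.3% lay in LADs of preadipocytes, none in control adipocytes or the single knockdown, and 42.6% in the double knockdown. The gene body was therefore covered more in the double knockdown than in preadipocytes, although the region was counted as stably released. Fh1, Parm1, Jazf1, Pla2g12a, Sema3c and Trim55 of the same list met other released regions only. Such a gene need not itself be back in a LAD, and Pla2g12a had 22.1% of its body in LADs of preadipocytes and 0% in each adipocyte list.

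**Figure D2:**
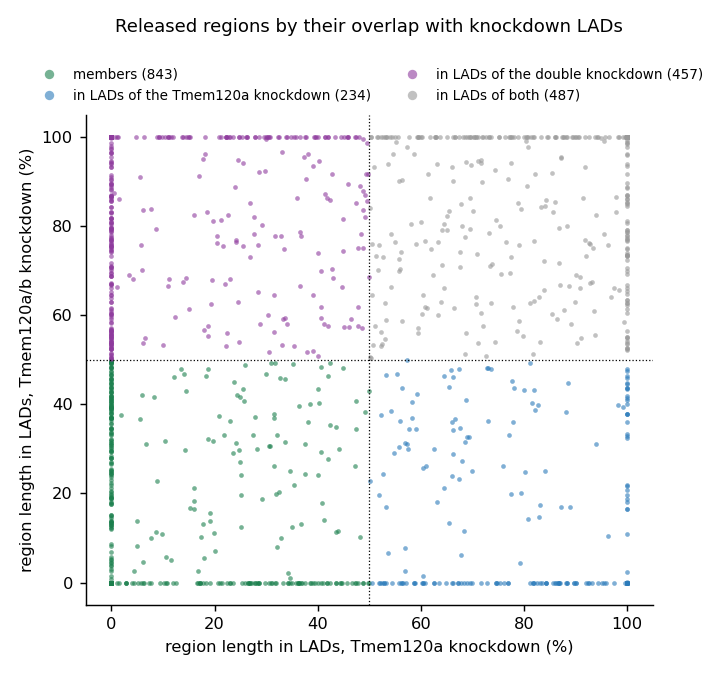
Share of the length of each of the 2021 released regions that lay in LADs of the Tmem120a knockdown (x axis, %) and of the Tmem120a/b double knockdown (y axis, %), 1 point per region, with dotted lines at the 50% limit. The 843 stably released regions (members) fill the lower left corner by definition, and 492 of them sit at 0 on both axes.

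Most stably released regions were LADs that were missing as a whole from control adipocytes. Of the 843, 521 (61.8%, 58.5 to 65.0%) were a complete preadipocyte LAD, as at Cd36 and Pck1. The other 322 touched a stretch that was in LADs of both preadipocytes and control adipocytes, 272 on 1 side, as at Gdf6, and 50 on both sides, as at miR-17-92. Among the other released regions a complete preadipocyte LAD was seen in 36.5% (33.8 to 39.3%), and regions between 2 shared stretches made up 17.7% against 5.93% of the stably released ones. The share of complete LADs was 27.1% for regions covered in both knockdowns, 41.5% for those covered in the Tmem120a knockdown only and 44.0% for those covered in the double knockdown only. Counted the other way, 54.8% of the 951 released regions that were complete LADs were stably released, against 30.1% of the 1070 that touched a shared stretch. This measure uses the preadipocyte and control adipocyte lists alone. With 1 list per condition the difference was not tested against replicate error. The knockdown lists held more and shorter LADs (median 59.0 kb in the Tmem120a and 60.7 kb in the double knockdown, against 83.2 kb in preadipocytes and 103 kb in control adipocytes), and the part of this in the result was not tested.

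The preadipocyte LAD that a stably released region belonged to had a median of 66.5 kb (quartiles 34.4 and 160 kb) against 135 kb (55.5 and 371 kb) for the other released regions. This goes with the share of complete LADs, and among complete LADs alone the medians were 42.0 and 45.7 kb. The regions themselves were of like size. Their median length was 38.6 kb (quartiles 22.8 and 64.4 kb) against 36.2 kb (21.1 and 63.0 kb), they ranged from 8.04 to 359 kb, and they summed to 43.1 Mb or 41.8% of the released length. By length the share of released regions that were stably released ran from 37.7% below 20 kb to 44.7% at 40 to 60 kb, with overlapping intervals (33.2 to 42.5% and 39.7 to 49.7%).

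**Figure D3:**
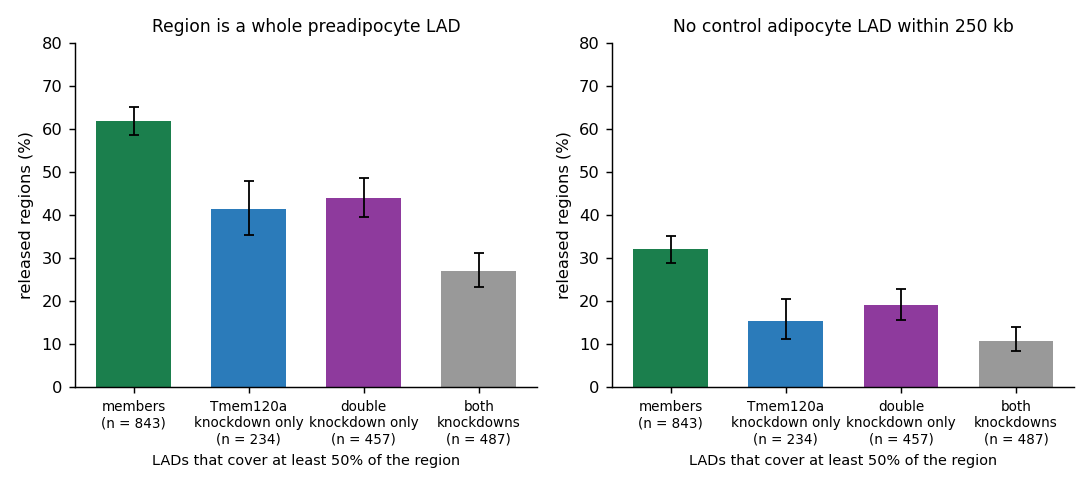
Share of released regions (y axis, %) that were a complete preadipocyte LAD (left) or had no control adipocyte LAD within 250 kb of either border (right), by the knockdown LADs that covered at least 50% of the region, with 95% Wilson intervals. Members are the 843 stably released regions, of which 61.8% were complete LADs and 32.0% had no control adipocyte LAD near.

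The stably released regions also lay farther from the LADs that remained. Their median distance to the nearest control adipocyte LAD was 86.9 kb (quartiles 0 and 374 kb), while 63.5% of the other released regions touched one. Within 250 kb of the borders, control adipocyte LADs covered a mean of 22.9% of the sequence beside stably released regions and 35.1% beside the other released regions. In 270 of 843 (32.0%, 29.0 to 35.3%) there was no control adipocyte LAD within 250 kb, against 14.9% (13.0 to 17.1%) of the others. Part of this follows from their position, since a region that touches a shared stretch has a LAD beside it. Among complete LADs alone, control adipocyte LADs covered 9.78% of the flanks of stably released regions and 14.4% of those of the others, and among regions touching a shared stretch 44.1% and 47.0%.

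The flanks were not measured by the rule but lie next to what it measured. In the 50 kb next to each border of a stably released region, mean coverage was 29.3% in preadipocytes, 21.2% in control adipocytes, 15.9% with Tmem120a knocked down and 21.0% with both genes knocked down. Beside the other released regions the same means were 44.8%, 38.7%, 43.6% and 54.4%. Coverage by the Tmem120a knockdown was thus below that of control adipocytes beside the stably released regions, as it was beside the regions covered in the double knockdown only (31.3% and 32.6%). Over 250 kb coverage by the Tmem120a knockdown was not below that of control adipocytes beside the stably released regions. Beside the stably released regions the 250 kb means were 34.6% in preadipocytes, 22.9% in control adipocytes, 23.1% with Tmem120a knocked down and 26.6% with both knocked down. Beside the others they were 46.9%, 35.1%, 41.0% and 48.4%. A LAD that covers part of a region, or a gap that spans it, can run on into its flank, so these values are a description. Neighbouring regions also shared their class more often, but both classes rest on the knockdown overlaps that the rule used. The nearest released neighbour of a stably released region lay at a median of 91.0 kb. The same knockdown LAD or gap can span both, so the shares that follow are a description. The nearest released neighbour was itself stably released for 52.7% of stably released regions (49.3 to 56.0%) and for 32.5% of the others (29.9 to 35.2%), and for 40.9% of all released regions.

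**Figure D4:**
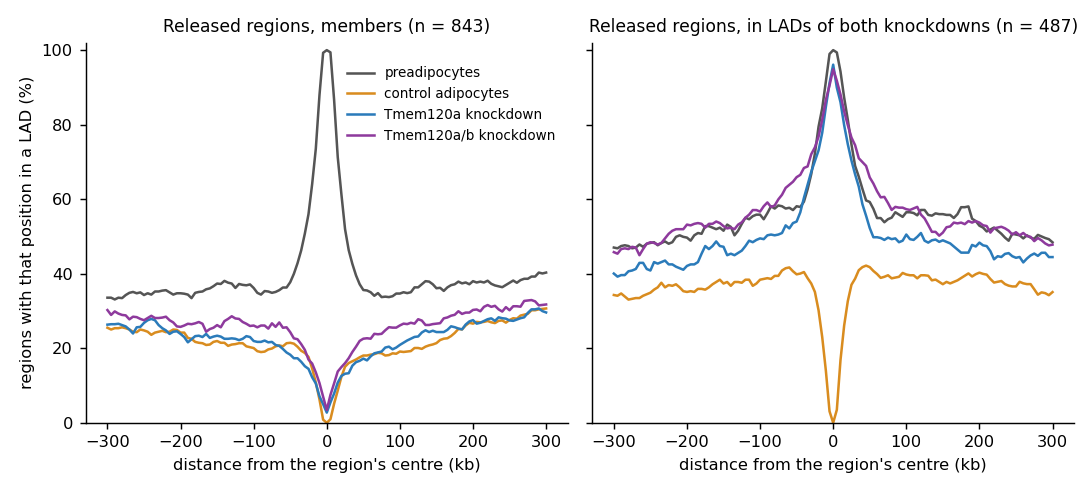
Percentage of regions whose position at each distance from the region's centre (x axis, kb) lay in a LAD (y axis, %), for the 843 stably released regions (left, members) and the 487 regions covered in both knockdowns (right), with 1 line per LAD list. At 100 kb above the centre the lines of preadipocytes, control adipocytes, the Tmem120a and the double knockdown stood at 34.7%, 19.1%, 20.9% and 26.1% on the left and at 56.5%, 39.8%, 50.5% and 57.3% on the right; the values at the centre follow from how the regions were chosen.

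In 51 stably released regions (6.05%) no LAD of control adipocytes or of either knockdown lay in the region or within 250 kb. The 5 longest were at chr16:77139293-77314160 (175 kb), chr17:81632202-81776336 (144 kb), chr19:42416656-42559960 (143 kb), chr15:55471995-55608164 (136 kb) and chr8:117438597-117559048 (120 kb). The chr16 and chr17 regions met no protein-coding gene, and their nearest control adipocyte LADs were 934 kb and 800 kb away. The chr19 region held the start and 60.2% of the body of Crtac1, which encodes a cartilage matrix protein. The chr15 region met Sntb1, a syntrophin of the dystrophin complex, and the chr8 region met Wwox, an oxidoreductase gene at a fragile site. The 913 kb Wwox gene was met by 5 separate stably released regions, and 41.0% of its body lay in LADs of preadipocytes, none in control adipocytes, 1.69% in the single knockdown and 1.79% in the double knockdown.

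The 5 longest regions were less uniform than the typical one. The longest, chr12:36929330-37288463 (359 kb), touched a shared stretch and was covered to 27.4% by the Tmem120a knockdown and 33.2% by the double knockdown. It held Sostdc1, an antagonist of BMP and Wnt signalling, and this 4.28 kb gene was wholly inside a preadipocyte LAD and wholly inside a LAD of the Tmem120a knockdown, but outside the LADs of control adipocytes and the double knockdown. A gene could therefore be back in a LAD although its region was counted as stably released. The region at chr12:41873171-42182586 (309 kb, 47.2% and 26.2%) met Immp2l, a mitochondrial peptidase gene, and Lrrn3. The region at chr3:157240468-157533130 (293 kb, 13.6% and 47.9%) met Ptger3, a prostaglandin E2 receptor that restrains lipolysis, with 86.4% of the gene in LADs of preadipocytes and none in any adipocyte list. The region at chr8:117886037-118176927 (291 kb, 0% and 12.9%) met no protein-coding gene. The region at chr3:153942083-154227815 (286 kb, 0% and 13.8%) held Lhx8, a homeobox factor, whose whole body was in a LAD in preadipocytes alone.

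Protein-coding genes met by stably released regions numbered 566, or 2.53% of the 22367 annotated. The start of 344 and the whole body of 169 lay inside. At least 1 gene was met by 56.3% of stably released regions (53.0 to 59.7%) and 57.1% of the others (54.3 to 59.9%). Gene starts numbered 7.97 per Mb in stably released regions, 7.34 in the other released regions and 8.47 over the chromosomes. Among complete LADs alone the stably released and other released regions had 7.41 and 7.48 per Mb. Among regions touching a shared stretch they had 9.14 and 7.23. The genes met were long, with a median of 45.8 kb against 15.4 kb for all protein-coding genes, and longer genes have more chance of meeting a region. Genes met by the other released regions were about as long, with a median of 43.3 kb. In preadipocytes 195 of the 566 lay wholly in LADs, and 128 of these had no base in a LAD of control adipocytes or either knockdown. Over all 566, 287 had no base in a LAD in any of the 3 adipocyte lists. The regions were chosen for lying outside control adipocyte LADs and for low overlap in both knockdowns, so these counts are a description. They were not set beside counts for other genes.

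Of 46 genes of lipid storage, lipid synthesis and adipokines, 2 met a stably released region, Cd36 and Pck1, and 1, Rbp4, met another released region only. Of 24 annotated adipogenic transcription factors 1 met one, which was Prdm16, the determinant of brown fat fate. Prdm16 met 2 regions at its ends, chr4:153666178-153702427 (0% in the Tmem120a and 40.6% in the double knockdown) and chr4:153953447-154059567 (0% in both). Its body was 21.7% in LADs of preadipocytes, 0% in control adipocytes and with Tmem120a knocked down, and 41.7% in the double knockdown, so like Ak4 it had more of its body in LADs of the double knockdown than of preadipocytes. The lipid and transcription factor lists were thus met for 4.35% and 4.17% of their genes, beside 2.53% of all genes, on counts of 2 and 1.

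Of 52 Wnt pathway genes 3 met a stably released region: Dkk2, a secreted Wnt antagonist, and Rspo2 and Rspo4, secreted enhancers of Wnt signalling. Their bodies were in LADs of preadipocytes for 33.3%, 5.81% and 18.4%, and of the Tmem120a knockdown for 0% each. In the double knockdown the share was 17.4% for Dkk2 and 0% for the R-spondins. Wnt3, Dkk1, Lgr5 and Axin2 met other released regions only, although the Dkk1 gene itself was at 100% in preadipocytes and 0% in each adipocyte list. Of 59 genes of the TGF-beta and BMP pathway 2 met one, Gdf6 and Bambi, a decoy receptor, whose body was 67.2% in LADs of preadipocytes and 0% in each adipocyte list. Bmp3, Bmp5, Bmp7, Acvr1, Acvr1c and Nog met other released regions only. These were 5.77% and 3.39% of the 2 lists, on counts of 3 and 2, beside 2.53% of all genes.

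Of 55 fibroblast and matrix genes 1 met a stably released region, Adamts2, a procollagen protease, with 8.87% of its body in LADs of preadipocytes and none in the other lists. Of 54 skeletal muscle genes 1 met one, Sgcd, a sarcoglycan of the muscle membrane. Sgcd is 1093 kb long and lay in LADs for 73.9% of its body in preadipocytes, 57.6% in control adipocytes, 71.9% with Tmem120a knocked down and 71.0% with both knocked down. Only part of Sgcd was therefore released, and its body as a whole was covered in the knockdowns nearly as in preadipocytes. Myl1, Actn2, Ttn, Mybpc1 and Trim55 met other released regions only. The fibroblast and muscle lists were met for 1.82% and 1.85% of their genes, beside 2.53% of all genes.

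Among the 20 longest genes lying wholly in a stably released region, all 20 were completely in a LAD in preadipocytes and outside LADs in control adipocytes, as their choice fixes. Besides Cd36, those with no base in a LAD of either knockdown were Abca9, Zcwpw2, Shank3, Ankrd5, Kcnmb4, 1700108M19Rik, Zdbf2, Plagl1, Cacng5, Elovl2 and Gimap1. Elovl2 elongates polyunsaturated fatty acids, Plagl1 and Zdbf2 are imprinted genes, and Shank3 is a synaptic scaffold. In the Tmem120a knockdown alone, LADs covered 79.2% of Lypd1, 51.1% of Slc6a20a, an amino acid transporter, 46.8% of Naip2, 29.7% of Clec1a and 24.0% of 4930447C04Rik. In the double knockdown alone they covered 52.5% of Hs3st3b1, a heparan sulfate sulfotransferase, and 40.4% of Abca6. Sgsm1 was covered in both, to 32.4% and 49.3%.

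**Figure D5:**
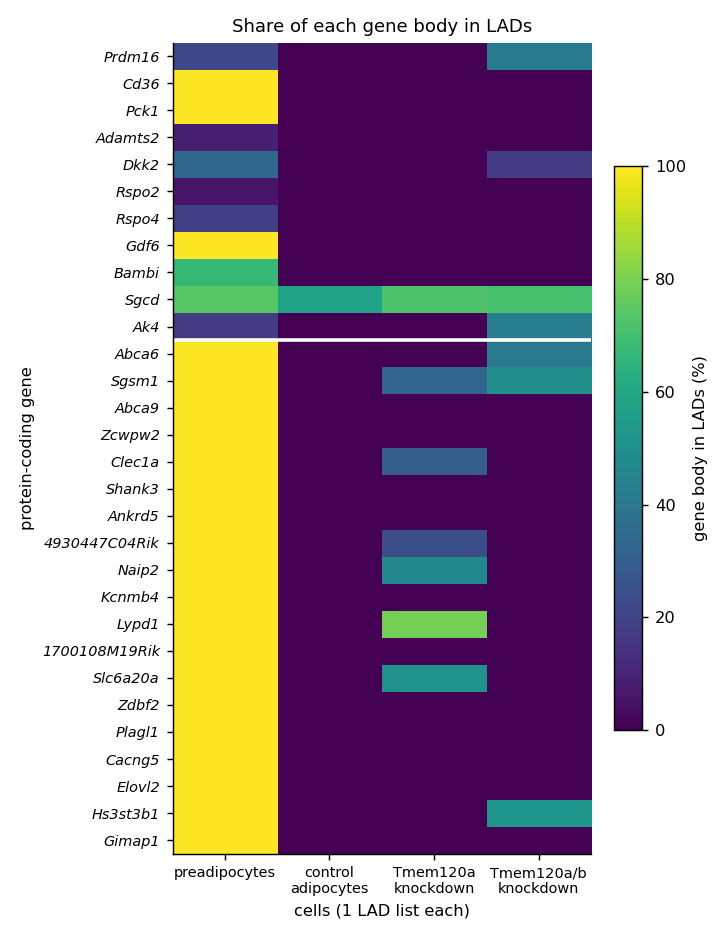
Share of each gene body in LADs (colour, %) in the 4 LAD lists (columns) for 30 protein-coding genes (rows), first the 11 genes of the lists that met a stably released region, above the white line, then the remaining genes of the 20 longest lying wholly in one. Most genes below the line are at 100% in preadipocytes and 0% in the other columns, and Sgcd is above 57% in every column.

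The genes met included 34 sets of at least 2 genes that share a symbol stem on 1 chromosome. A few are described here, picked out after their values were seen, and their number was not compared with that in the other released regions. The Abca lipid transporter cluster on chr11 met 4 regions in a row. Abca9 was in a LAD for 100% and Abca8a for 70.8% of its body in preadipocytes and 0% in every adipocyte list, Abca5 for 44.9% and then 0%, and Abca6 for 100% in preadipocytes and 40.4% in the double knockdown. The interferon-inducible guanylate-binding proteins were present at 2 loci. On chr3, Gbp1, Gbp2 and Gbp3 lay wholly in chr3:142218288-142318672, a 100.4 kb region with no base in a LAD of either knockdown, and Gbp5 nearby was at 42.8% in preadipocytes and 0% in the other lists. On chr5, Gbp6 and Gbp11 were at 100% in preadipocytes and 0% elsewhere, and Gbp10 was covered to 21.0% in the Tmem120a and 10.5% in the double knockdown. Gimap1, Gimap7 and Gimap9, GTPases of immune cells, were likewise at 100% in preadipocytes alone, and Gimap5 was at 93.9% in preadipocytes alone. Of the antiviral oligoadenylate synthetases, Oas1a was at 100%, Oas1d at 51.0% and Oas1g at 29.98% in preadipocytes, and all were at 0% in the other lists.

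Some of these sets are developmental transcription factors. Dlx5 and Dlx6 on chr6, Olig1 and Olig2 on chr16, and Zic2 and Zic5 on chr14 lay wholly in LADs of preadipocytes and had no base in a LAD of the 3 adipocyte lists. On chr2, Hoxd1 was at 100% and Hoxd13 at 41.0% in preadipocytes, and both were at 0% in the other lists. On chr19, Dmrt3 was at 100% in preadipocytes and 0% in the other lists, while Dmrt1 was at 100% in preadipocytes, 89.4% in control adipocytes, 86.1% in the single and 81.7% in the double knockdown. No expression was measured in these files, so a place outside LADs says nothing of whether these genes were active.

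The regions meeting the most protein-coding genes differed in how far they held. In chr7:126788596-126966057 (177 kb, 32.0% in the Tmem120a and 33.2% in the double knockdown), 6 genes were met, among them the medium-chain acyl-CoA synthetases. Of these, Acsm4 was at 0% in control adipocytes, 48.6% with Tmem120a knocked down and 0% with both knocked down, and Acsm3 was at 0%, 0% and 59.7%. Acsm1 was at 68.6% already in control adipocytes and at 100% in both knockdowns. In chr6:129326026-129441226 (115 kb, 19.2% and 13.8%), C-type lectin receptor genes of immune cells split in the same way. Clec1b was covered to 88.0% in the Tmem120a knockdown and Clec7a to 52.8% in the double knockdown, while Clec9a was at 0% in both. By contrast chr11:50602848-50707257 (104 kb) and chr9:119051358-119107448 (56.1 kb) had no base in a LAD of either knockdown. They held Zfp354c, Zfp879, Zfp454 and Grm6, and Acaa1b, a peroxisomal thiolase, and Slc22a14, all at 100% in preadipocytes and 0% in the other lists. In chr2:11524676-11582710 (58.0 kb, 0% and 0%), Il2ra, the interleukin 2 receptor alpha chain, was at 36.3% in preadipocytes alone.

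In base composition the stably released regions were slightly more AT-rich than the rest. Their median GC content was 41.5% (quartiles 39.7 and 44.2%) against 42.4% (40.5 and 44.5%) in the other released regions. The difference in the medians ran the same way among complete LADs (41.7% and 42.7%) and among regions touching a shared stretch (41.2% and 42.3%). The density of GATC, which sets how finely DamID can resolve a region, had a median of 2.48 per kb against 2.49, and a stably released region held a median of 96 sites. Matches of the direct repeat of AGGTCA, counted on both strands, numbered 2.25 per Mb in stably released and 2.26 in the other released regions, and at least 1 was present in 9.13% (7.37 to 11.3%) and 9.42% (7.88 to 11.2%) of regions. Matches of TTGCGCAA, a palindrome bound by C/EBP factors, numbered 0.927 and 0.865 per Mb. A match describes the sequence only and was not tested for binding.

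Across chromosomes the share of released regions that were stably released was highest on chr11, with 56 of 103 (54.4%, 44.8 to 63.7%), and chr15, with 42 of 83 (50.6%, 40.1 to 61.1%). It was lowest on chr8, with 28 of 105 (26.7%, 19.1 to 35.8%), and chr7, with 25 of 88 (28.4%). The intervals of chr11 and chr8 did not overlap, but the 2 were picked as the extremes of 20 chromosomes and the difference was not tested. The X chromosome, with 44 of 95 (46.3%), lay between them.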

How the data were processed

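LaminB1-DamID was carried out in 8 libraries of 3T3-L1 cells, 1 Dam and 1 LaminB1-Dam in each of 4 conditions. The submitters' processing notes name BWA, limma and the build mm9, and per the study's methods the authors divided LaminB1-Dam by Dam signal on a log scale for each DpnI fragment and segmented the result into LADs. The deposited lists hold LAD positions only, with no score, ratio or count. Depth is therefore unknown. Each list was matched to its condition by its abbreviation, and the authors took as differential the regions whose LADs differed, by a cited method whose thresholds are not given in the sources used here.

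Overlaps were computed by base with numpy 2.4.6 in Python 3.11.15 on chromosomes 1 to 19 and X, with Wilson intervals from scipy 1.17.1 and plots from matplotlib 3.10.9. Starts are counted from 1. Sequence and genes came from NCBIM37 (mm9) with GENCODE vM1, and microRNAs were matched to RefSeq by symbol (6 of 21 genes in these regions, with 11 mature arms). Motifs were searched on both strands with no mismatch.

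Regions were named as the 5 longest, the 5 meeting most genes, the 5 longest with no adipocyte LAD within 250 kb, and the 3 nearest the limit on each side. Regions of genes named were described too, and that of miR-17-92, with other genes in these regions, was added after values were seen. Genes named are those meeting these regions, those of the 7 lists, the 20 longest lying wholly inside, and clusters picked after values were seen. The members, lists and rules were chosen with earlier results of these data known. The assignment to classes was tested on simulated data. Alternatives were the overlap limit, filters on LAD and region length, closing of gaps, all pieces of the subtraction, autosomes, and the gene overlap.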

Additional observations from a re-analysis of the deposited data

How the results depend on the processing

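Of 72 values under 9 alternative settings, 44 lay within the interval of the main value or within 1.5 times a count, sum or density, and 28 did not. With a limit of 20% in place of 50%, stably released regions were 28.6% of the released list and summed to 26.1 Mb with a median of 33.3 kb, 67.2% were complete preadipocyte LADs (32.8% touched a shared stretch), 85.0% had no base in a knockdown LAD, and 353 genes were met. With 80% these were 59.1%, 67.7 Mb, 41.6 kb, 57.0% (43.0%) and 41.2%, and the median GC content was 41.9%. With knockdown LADs of at least 30 kb the share was 45.6% and 69.7% had no knockdown base, and with gaps under 50 kb closed 37.4% and 63.6%. With released regions of at least 30 kb there were 524 regions of median 56.0 kb, 66.8% complete LADs (33.2% touching) and 49.2% with no knockdown base. With all 2602 pieces of the subtraction the median was 33.2 kb and 57.1% were complete LADs (43.0% touching). Genes with their start inside numbered 344 and whole genes 169. The limits and filters change which regions enter, and the causes beyond that were not tested.

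Under each of the 7 settings that change the regions, complete LADs stayed more frequent, GC content lower and flanking control adipocyte LADs sparser in stably released than in other released regions. No paired analysis was possible because each condition has 1 library of each kind and the results come from no test. There was no replicate to leave out. The lists give no depth or signal, so a weak LAD cannot be told apart from none.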
